A study of Mus musculus with 40 samples.

Results

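Macrophages that meet IL-4 or IL-13 take on the state called alternative activation. The cytokines bind receptors that contain the IL-4 receptor alpha chain, the transcription factor STAT6 is phosphorylated, and genes for scavenger receptors, lectins and secreted chitinase-like and resistin-like proteins are transcribed. In lean fat tissue many macrophages carry such markers, and in obese fat tissue macrophages with inflammatory markers accumulate beside them.

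The set holds 10 genes widely used as markers of this state, of which 9 are described: Mrc1, Cd163, Clec10a, Mgl2, Lyve1, Il4ra, Il10, Retnla and Chi3l1. No result is given for 1 gene of the set, and counts over the set cover the 9. They were chosen by name, and their probes were found through the gene symbols of the deposited fold change table, which names 29411 symbols on 40628 probes. Of the 9 genes, 8 were found by symbol. Clec10a stands in that table under its older symbol Mgl1 and was found through its RefSeq accession. Found this way, Retnla has 2 probes and each of the other genes 1, which makes 10 probes. A further probe of Lyve1, listed under its older symbol Xlkd1, was not found this way and is given beside it. RefSeq calls Chi3l1 Chil1.

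The material was total RNA of subcutaneous stromal vascular cells, called infiltrating macrophages in the series title, from C57BL/6J mice put on diets at 3 to 4 weeks of age and hybridised to Agilent arrays in 1 colour. The groups were a normal low-fat diet with 10% of calories from fat (LFC), a high-fat, high-sucrose diet with 60% of calories from fat (HFC), and that high-fat diet with 5 µg, 20 µg or 75 µg of the botanical formulation Kal-1 (HF5, HF20 and HF75). LFC and HFC had 11 arrays each: days 1, 6, 10 and 14, week 0, and weeks 3, 6, 9, 12, 15 and 18, where the weeks count from day 14, so that week 3 is day 35 and week 18 is day 140. HF5 had 6 arrays at weeks 3 to 18, and HF20 and HF75 had 5 each at weeks 3 to 15, with 1 array per diet and time label throughout. All diets used the same strain, and the labels state neither sex nor how many of the 5 animals taken per group every 3 weeks went into an array. The series design speaks of 3 biological replicates per diet, while the files hold 1 array per diet and time label, so what an array stands for is not settled and the p-values measure only the spread between arrays. Precision is limited by how few arrays there are.

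A level below is the log2 intensity of a probe relative to the 75th percentile of its array, so 0 is a bright probe and each unit is a 2-fold step. Where the scanner software did not mark a spot as well above background, a level under the lowest of those so marked on the array was raised to it, and levels not well above background are given no order among themselves. All 9 genes passed the filter on dim probes in each of the 7 comparisons. Levels of the 9 genes come from different probes and were not set against each other. A list gene called brightest or leading is the one with the brightest probe, which does not rank the RNA of different genes.

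Several arrays stood apart before any comparison. On the LFC array of week 3, 17.2% of probes were well above background and its rank correlation with the others had a median of 0.51. On the LFC array labelled day 14, 9104 spots were marked as outliers and that correlation was 0.46. The differences that rest on LFC are therefore also given without these 2 arrays. The LFC array of week 18 stood apart in markers of cell types. The summed level of 10 adipocyte genes, led by Fabp4, was 0.45 against 5.64 or more on all the other 37 arrays, 8 fibroblast and progenitor genes, led by Dcn, summed to 2.80, and 6 blood endothelial genes, led by Cldn5, summed to -1.18. Its 8 neutrophil genes, led by S100a9, summed to 9.03, the highest of the 38 arrays. General macrophage genes were measured on nearly all arrays. The 10 (Adgre1, Cd68, Csf1r, Itgam, Fcgr1, Mertk, Lyz2, Cd14, C1qa and C1qb) were led by Lyz2, which the table lists as Lyzs, and from 8 to 10 of them were well above background on each array but that of LFC at week 3, which had 1. Their summed level, which leaves out dropped spots, ran from 3.86 to 7.53 with a median of 6.46. Adipocyte, fibroblast, endothelial and lymphocyte genes were well above background beside them, so the arrays hold RNA of mixed cells.

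Mrc1 encodes the mannose receptor CD206, an endocytic receptor and the usual surface marker of alternatively activated and resident macrophages. Over the 36 arrays without the LFC arrays of week 3 and day 14, its level ran from -0.66 to 2.74 with a median of 1.30, and it was well above background on all 36. The lowest level was that of HFC at day 1 and the highest that of HFC at week 6. Cd163, the scavenger receptor for haemoglobin bound to haptoglobin, ran from -0.82 to 2.58 with a median of 1.22 and was also measured on all 36.

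Clec10a and Mgl2 encode the galactose-type C-type lectins MGL1 and MGL2, and both genes lie on chromosome 11. Clec10a ran from -0.19 to 5.14 with a median of 3.97 on 35 arrays, and Mgl2 from -1.68 to 2.17 with a median of 0.66 on 36. The 3 lowest Clec10a levels, on LFC of week 18, HFC of day 1 and LFC of week 6, were on arrays that also had 3 of the 4 lowest Mgl2 levels. Lyve1, the hyaluronan receptor of lymphatic endothelium and of some tissue macrophages, ran from -5.33, on the LFC array of week 18, to 1.97 with a median of 0.23 on 36 arrays.

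Il4ra, the receptor chain through which IL-4 and IL-13 act, ran from -0.90 to 5.08 with a median of 2.13 on 35 arrays. The highest level was that of HF5 at week 3 and the lowest that of HFC at day 1. Il10, the cytokine that restrains macrophage activation, ran from -7.31 to -0.10 and was well above background on 31 of the 36 arrays.

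Of the secreted markers, Retnla, the resistin-like protein also called FIZZ1, was saturated on 8 of the 38 arrays. It lay between 0.46 and 6.36 on 35 of the 36 arrays, and on the LFC array of week 18 neither of its probes was well above background. The 2 Retnla probes differed at day 10, when the brighter probe read 3.89 in LFC and 5.86 in HFC and the second read -5.00, not well above background, and 1.89. Chi3l1, a chitinase-like protein made by macrophages and neutrophils, was well above background on 31 of the 36, and its highest level, 3.12, was that of LFC at week 18.

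**Figure D1:**
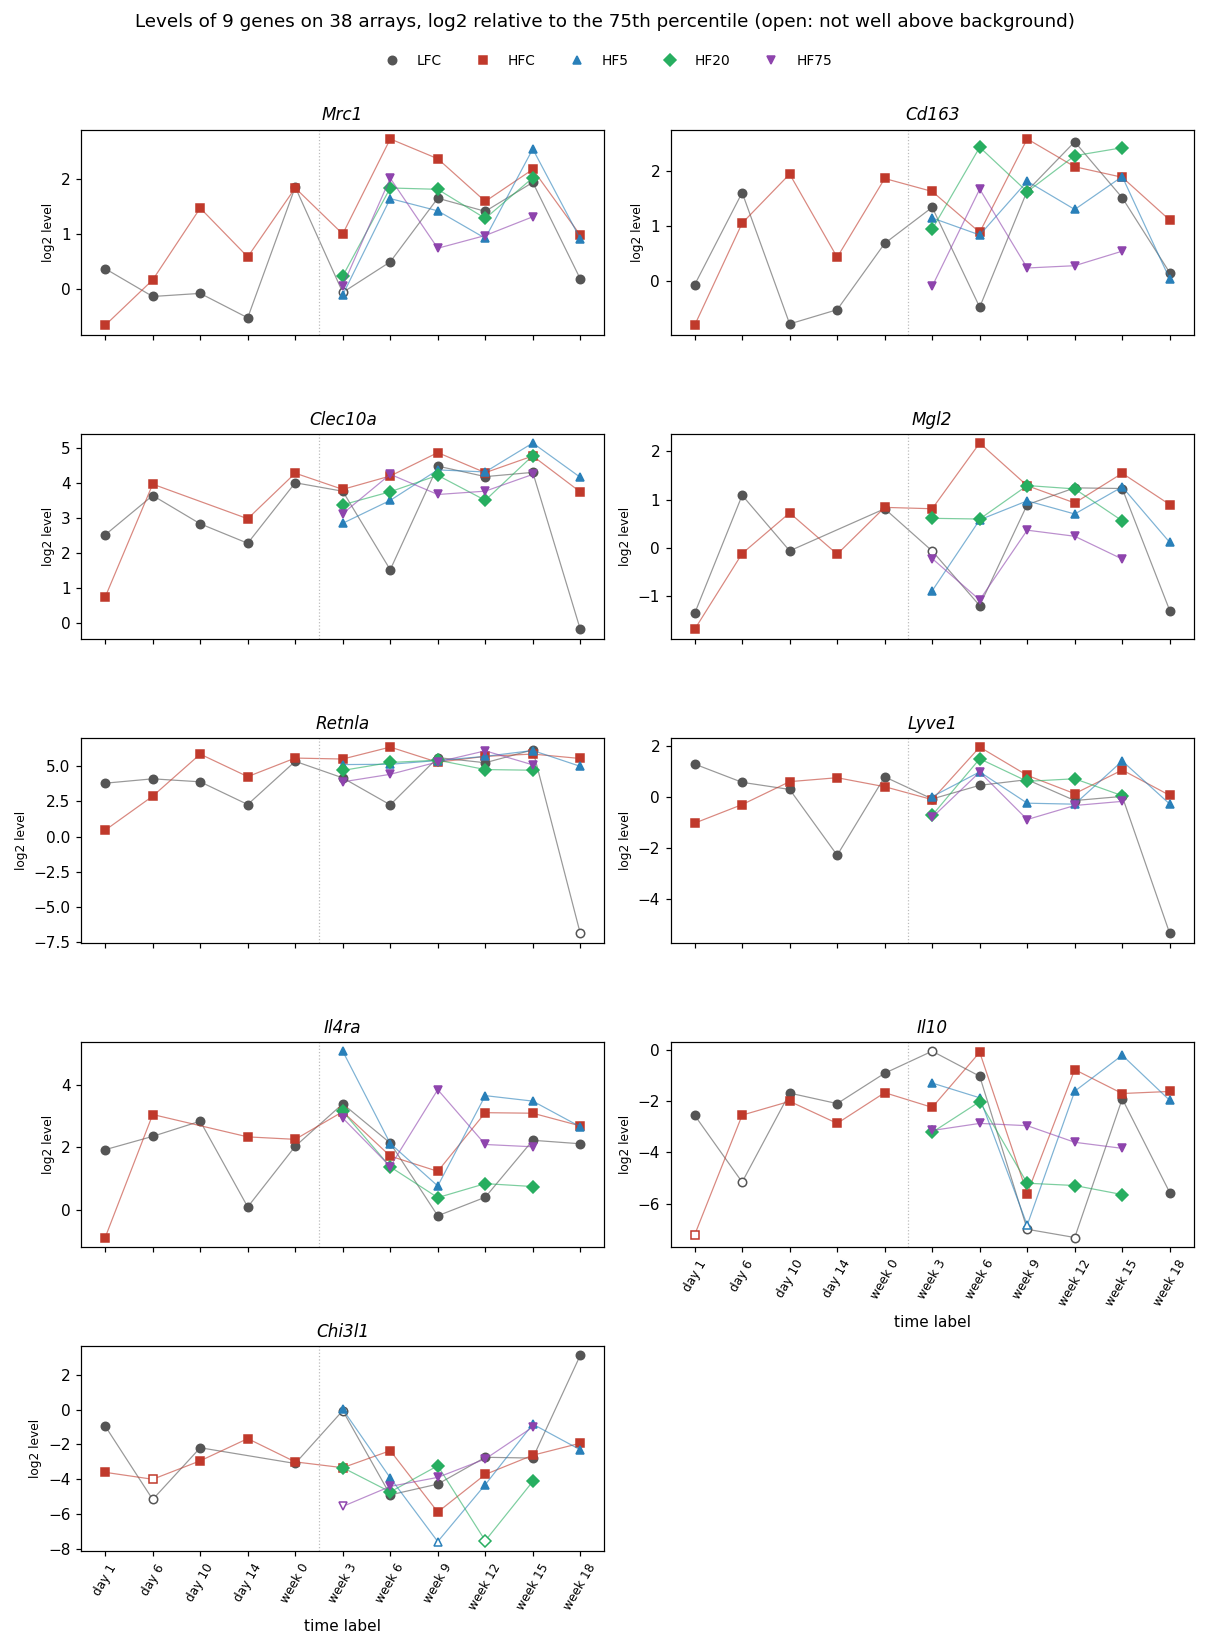
Log2 level relative to the array's 75th percentile (vertical axis) of each of the 9 genes at each time label (horizontal axis), 1 point per array on 38 arrays, coloured by diet, with lines joining the arrays of a diet and no point where all spots were dropped. Open points are not well above background, and the dotted line parts days 1 to 14 and week 0 from weeks 3 to 18. Retnla and Lyve1 have their lowest points, -6.88 and -5.33, in LFC at week 18, and Il10 at week 9 lies at -5.20 or lower in LFC, HFC, HF5 and HF20 and at -2.96 in HF75. It also lies below -5 in HFC at day 1, in LFC at day 6 and weeks 12 and 18, and in HF20 at weeks 12 and 15.

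At weeks 3 to 15, when all 5 diets had 5 arrays each, the mean level was highest in HFC for 6 of the 9 genes: Mrc1, Retnla, Mgl2, Clec10a, Lyve1 and Il10. It was lowest in HF75 for 4 genes, Mrc1, Mgl2, Cd163 and Lyve1, and lowest in HF20 for 3, Il10, Il4ra and Chi3l1. Of the latter, the orders of Il10 and Chi3l1 are not exact, as given below. The LFC means hold the array of week 3. On it 5 of the 9 genes, Mrc1, Mgl2, Lyve1, Il10 and Chi3l1, were not well above background and stood at its lowest level. Without that array, left out here after its levels were seen, HFC was still highest for the 6 genes and HF75 lowest for the 4. LFC was then lowest for Il4ra, at 1.14 ± 1.23 (SD, n = 4), while for Il10 LFC and HF20 are given no order, since 2 of the 4 LFC levels were not well above background. Chi3l1 in LFC moved from the highest mean to the fourth, -3.67 ± 1.08. Over weeks 6 to 15 in all diets HF20 was lowest for Il4ra. For Chi3l1 HF20 and HF5 are given no order over these weeks, since 1 level of each was not well above background. For Mrc1 the order was HFC 1.98 ± 0.68 (SD, n = 5), HF20 1.44 ± 0.73, HF5 1.29 ± 0.98, LFC 1.09 ± 0.84 and HF75 1.02 ± 0.72. None of these neighbours in the order lay further apart than the smaller of their SDs. The same held for Clec10a, Il4ra and Chi3l1. For Mgl2 the order was HFC 1.35 ± 0.54 (SD, n = 5), HF20 0.86 ± 0.37, HF5 0.53 ± 0.83, LFC 0.42 ± 1.05 and HF75 -0.18 ± 0.57, and 2 of the 4 steps exceeded the smaller SD. For Lyve1 the order was the same, from 0.79 ± 0.82 in HFC to -0.23 ± 0.74 in HF75, and for Cd163 it ran from HF20 with 1.94 ± 0.65 over HFC, HF5 and LFC to HF75 with 0.52 ± 0.68, each with 1 such step. Retnla ran from 5.74 ± 0.41 in HFC over HF5, HF20 and HF75 to 4.69 ± 1.54 in LFC. It was saturated on 3 of the 5 HFC, 2 of the HF5, 2 of the HF20 and 1 of the LFC arrays, so its order and steps are not exact. Il10 ran from -2.09 ± 2.13 in HFC over HF5, HF75 and LFC to -4.27 ± 1.57 in HF20, an order that is not exact, since 3 of the 5 LFC levels and 1 of the 5 HF5 levels were not well above background. Il4ra ran from 3.02 ± 1.64 in HF5 over HFC, HF75 and LFC to HF20, whose levels from 0.38 to 3.15 had a mean of 1.30. Clec10a ran from 4.39 ± 0.43 in HFC over HF5, HF20 and HF75 to 3.65 ± 1.22 in LFC. Chi3l1 ran from -2.95 ± 1.87 in LFC with the array of week 3, followed by -3.32 ± 3.03 in HF5, to -4.58 ± 1.75 in HF20. Its order and steps are not exact, since LFC of week 3 and 1 level each in HF5, HF20 and HF75 were not well above background. HF5, HF20 and HF75 are compared with the same HFC arrays below, so their differences from HFC are not independent of each other.

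The comparison of HFC with LFC asks what the high-fat diet did to these genes. Between the diets, 8 of the 9 genes had a higher mean in HFC and Chi3l1 a lower one, and the differences varied widely between time labels. Mrc1 ran from -0.52 to 1.95 with a median of 0.37 in LFC and from -0.66 to 2.74 with a median of 1.48 in HFC, and the ranges overlapped. Without the 2 LFC arrays that stand apart the LFC range was -0.13 to 1.95 with a median of 0.50. Mrc1 was higher in HFC at 9 of 11 time labels, by 0.65 ± 0.31 (SE) log2 units, or 1.57-fold. The differences ran from -1.03 at day 1 to 2.24 at week 6, with a median of 0.72. The exact two-sided sign-flip permutation test over the 11 labels gave p = 0.0303, not corrected for the other genes, and p = 0.121 over the 9 labels left without the 2 LFC arrays that stand apart.

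In limma, which adjusted for all 29215 probes tested with the time label as a block, 0 of the 9 genes passed the threshold of an adjusted p under 0.05, as did 0% of all probes, and the adjusted p of Mrc1 was 0.942. At an unadjusted p under 0.05 there were 0 of the 9 genes and 806 of all probes. Without the time labels of the 2 LFC arrays that stand apart, 0 of 29298 probes passed, with 1052 at an unadjusted p under 0.05, and the same 8 genes had a higher mean in HFC. The differences were then 0.55 for Mrc1, 0.65 for Cd163, 0.80 for Clec10a, 0.58 for Mgl2, 0.57 for Lyve1, 0.41 for Il4ra, 1.55 for Retnla and -0.79 for Chi3l1, and larger than with these arrays for Il10. Single labels carried several differences over all labels: Clec10a was 0.36 and Lyve1 0.27 without week 18, Mgl2 0.30 without week 6, and Il10 0.04 and Il4ra 0.28 without week 12. The Il10 differences are not exact, since 4 of the 11 LFC levels and 1 of the HFC levels were not well above background. Over the 6 pairs well above background in both diets, the mean Il10 difference was 0.54 ± 1.78 (SD). In these mixed cells, a difference in the share of macrophages and a difference in the RNA of a gene per macrophage cannot be told apart. The median difference of the 9 genes was 0.64, beside -0.09 over all probes.

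Cd163 was higher in HFC at 8 of 11 time labels, by 0.64 ± 0.33 log2 units, with an adjusted p of 0.942. Retnla was 1.57 ± 1.06 log2 units higher in HFC over all labels. A single label carried much of that: at week 18 HFC read 5.55 and LFC was not well above background, and without week 18 the difference was 0.49. Retnla lay lower in HFC at days 1 and 6, by -3.34 and -1.23, and higher at days 10 and 14, by 1.97 and 1.98. The second Retnla probe differed by 2.40 ± 0.97, with an adjusted p of 0.942. At day 10 and week 18 its LFC level was not well above background, and over the other 8 pairs the mean difference was 0.89 ± 1.75 (SD). Saturation makes the mean differences of both probes inexact. The first was saturated in HFC at weeks 6, 9 and 15 and in LFC at week 9. The second was saturated in HFC at weeks 6 and 9. Chi3l1 was -1.04 ± 0.63 (SE) log2 units lower in HFC, and -0.59 without week 18. Of 8 neutrophil genes 7 were lower in HFC too, with a median difference of -0.65, as were 6 of 6 epithelial and 5 of 5 B cell genes. Of the 10 general macrophage genes 9 were higher, with a median of 0.20, while their sum was higher at 5 of 11 labels. All 10 early response genes were also higher in HFC, as were 8 of 8 fibroblast, 6 of 6 blood endothelial and 13 of 16 resident macrophage genes, a list that holds Mrc1, Lyve1 and Cd163 themselves. The summed early response level was higher in HFC at 7 of 11 labels, and their part in these differences was not tested.

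Whether the diet difference itself differed between weeks 3 to 18 and the earlier labels was tested on the 11 differences. Retnla was 3.03 ± 2.04 (SE), Il10 2.58 ± 1.50 and Lyve1 1.44 ± 1.11 log2 units more in favour of HFC in the later weeks. They rested on few labels: without week 18, where the LFC level of Retnla was not well above background, Retnla was 1.13 and Lyve1 0.63, and without day 1 Il10 was 1.61. The Retnla value is not exact, since its probe was saturated in HFC at weeks 6, 9 and 15 and in LFC at week 9. The Il10 value is not exact either, since in 5 of its 11 pairs 1 array was not well above background. Other genes moved with them: 10 of 10 early response genes, with a median of 1.94, 6 of 7 T cell genes, with 3.80 and 5 at an unadjusted p under 0.05, 5 of 5 B cell genes, with 3.49, and 8 of 8 fibroblast genes, with 1.55, were more in favour of HFC later, beside -0.50 over all probes. Their part was not tested. The second Retnla probe differed by 0.36 ± 2.06. In limma, 0 of the 9 genes and 0% of 29215 probes passed, with 0 genes and 1233 probes at an unadjusted p under 0.05. The lowest adjusted p of the 9 genes was 0.815. Without the time labels of the 2 LFC arrays that stand apart the differences were 3.86, 3.38 and 2.49, and 0 of 29298 probes passed, with 2497 at an unadjusted p under 0.05. With normexp 5049 probes passed, among them Il10.

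With 75 µg of Kal-1, Mrc1, Mgl2 and Lyve1 lay below HFC at each week. Mrc1 read 1.00, 2.74, 2.38, 1.60 and 2.18 in HFC at weeks 3, 6, 9, 12 and 15, and 0.06, 2.02, 0.74, 0.98 and 1.32 in HF75. It was thus lower in 5 of 5 weeks, by -0.96 ± 0.25 (SE) log2 units or 1.94-fold, although the ranges of the diets overlapped across weeks.

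Mgl2 read 0.81, 2.17, 1.29, 0.93 and 1.55 in HFC and -0.22, -1.07, 0.37, 0.24 and -0.23 in HF75. The highest HF75 level lay below the lowest HFC level, and the mean difference was -1.53 ± 0.41 log2 units, or 2.89-fold. Lyve1 read -0.09, 1.97, 0.86, 0.14 and 1.07 in HFC and -0.79, 0.99, -0.87, -0.32 and -0.16 in HF75, lower in 5 of 5 weeks by -1.02 ± 0.27 log2 units or 2.03-fold. The Lyve1 probe listed as Xlkd1 was -1.36 log2 units lower in HF75, with an adjusted p of 0.106 in limma.

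Cd163 was lower in HF75 in 4 of 5 weeks, by -1.29 ± 0.46 log2 units. At weeks 3, 9, 12 and 15 the differences ran from -2.35 to -1.35, and at week 6 Cd163 was 0.79 higher. Clec10a was -0.58 ± 0.26 and Retnla -0.78 ± 0.40 log2 units lower, with -1.06 ± 0.40 for its second probe. The Retnla differences are not exact, since its probe was saturated in HFC at weeks 6, 9 and 15 and the second at weeks 6 and 9, and without week 6 the first was -0.49. These 6 genes all had lower means in HF75, and so did 14 of 16 resident macrophage genes, 9 of them at an unadjusted p under 0.05. That list holds Mrc1, Lyve1 and Cd163 themselves, which are among the 9. Of the 10 general macrophage genes, 8 were lower, with a median difference of -0.78 and 5 at an unadjusted p under 0.05. Their summed level, led by Lyz2, was higher in HF75 in 3 of 5 weeks.

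In limma, 0 of the 9 genes passed against 1.02% of all 28910 probes, and 4 of the 9 had an unadjusted p under 0.05, as did 4220 of all probes. The adjusted p was 0.155 for Mrc1, 0.156 for Lyve1, 0.163 for Mgl2 and 0.262 for Cd163. The exact two-sided sign-flip permutation test over 5 weeks gave p = 0.0625 for Mrc1, Mgl2 and Lyve1, the smallest that 5 pairs allow. Of the 295 probes that passed, 236 were higher in HF75 and 59 lower, and with normexp 232 and 8. Without week 12 they were 94 and 1, and without week 15 34 and 1. The count was 0 without week 3, 7 without week 6, 35 without week 15, 95 without week 12 and 200 without week 9. It was also 0 without the block on weeks, in a model of all 38 arrays, and at weeks 12 and 15, when both diets were scanned on the same date. Over these weeks the differences were -0.74 for Mrc1, -1.23 for Mgl2, -0.85 for Lyve1 and -1.58 for Cd163. No HF75 array shared a slide with its HFC partner.

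Il10 lay between -3.84 and -2.87 on the 5 HF75 arrays. HFC read -2.25, -0.10, -0.78 and -1.71 at weeks 3, 6, 12 and 15, above each HF75 array, and -5.60 at week 9. The mean difference was -1.20 ± 0.80 log2 units with an adjusted p of 0.573, -2.16 without week 9 and -0.79 without week 12, neither of which passed. Il4ra had a mean of 2.45 ± 0.95 (SD, n = 5) in HF75 and 2.46 ± 0.92 in HFC, and Chi3l1 differed by 0.04 ± 0.72 (SE). The Chi3l1 value is not exact, since 1 of the 5 HF75 levels was not well above background. Over the other 4 pairs the mean difference was 0.61 ± 1.83 (SD), and 3 of them were higher in HF75. For Il4ra the means joined 4 weeks with lower levels in HF75 and week 9, when it was 2.62 higher. In the week 9 pair only the HFC array carries the letters WS in its title, as described below, and the scan dates differed.

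With 20 µg of Kal-1, 8 of the 9 genes had lower means than in HFC. Il10 read -3.22, -2.02, -5.20, -5.29 and -5.64 in HF20 at weeks 3, 6, 9, 12 and 15, lower than HFC in 4 of 5 weeks by -2.18 ± 0.74 (SE) log2 units or 4.55-fold. Il4ra read 3.15, 1.37, 0.38, 0.83 and 0.74, lower in 4 of 5 weeks by -1.16 ± 0.43 log2 units or 2.24-fold. The weeks differed: at weeks 12 and 15 Il4ra was -2.28 and -2.35 lower, and at week 3 it was 0.01 higher.

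Mrc1 was lower in HF20 in 5 of 5 weeks, by -0.54 ± 0.22 log2 units, and Retnla in 4 of 5, by -0.77 ± 0.27, with -0.87 ± 0.27 for its second probe. These Retnla differences are not exact either, since its probe was saturated in HF20 too at weeks 6 and 9. All 10 general macrophage genes were lower too, with a median difference of -0.56 and a summed level lower in 5 of 5 weeks. So were 14 of 16 resident macrophage genes, a list that holds Mrc1, Lyve1 and Cd163 themselves, with a median of -0.39. Lower means were also found in 8 of 8 neutrophil, 8 of 8 fibroblast, 6 of 6 blood endothelial and 5 of 5 B cell genes. Their medians were -0.90, -0.61, -0.60 and -1.20. Inflammatory macrophage genes were lower in 9 of 9 cases, with a median of -2.67, and T cell genes in 5 of 7, with -1.81. The part of these lists in the differences was not tested. Cd163 was 0.13 ± 0.40 log2 units higher, and without week 6 -0.23 lower. In limma, 0 of the 9 genes passed, as did 0% of 30831 probes, with 4 of the 9 genes and 3673 of all probes at an unadjusted p under 0.05. The lowest adjusted p of the 9 genes was 0.401. The early response genes Fos, Fosb, Jun, Junb, Egr1, Atf3, Dusp1, Ier2, Hspa1a and Hspa1b, which tissue handling and digestion induce, were lower in HF20 in 10 of 10 cases, 9 of them at an unadjusted p under 0.05, with a median difference of -2.73. Their summed level was 3.16 at week 12 and 6.32 at week 15 in HF20 against 8.79 and 8.45 in HFC. Of 10 adipocyte genes 9 were higher in HF20, with a median difference of 1.93. Their part in the Il10 and Il4ra differences was not tested.

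With 5 µg of Kal-1, Mgl2 read -0.88, 0.58, 0.98, 0.70, 1.26 and 0.12 at weeks 3 to 18 and was lower than HFC in 6 of 6 weeks. The mean difference was -0.81 ± 0.26 (SE) log2 units, or 1.76-fold, and the exact two-sided sign-flip permutation test gave p = 0.0312, the smallest that 6 pairs allow. At weeks 3 and 6 Mgl2 was -1.70 and -1.59 lower and at the other 4 weeks between -0.78 and -0.23. Over weeks 12, 15 and 18, when both diets lay on the same slide, the difference was -0.43.

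Mrc1 and Cd163 were each lower in HF5 in 5 of 6 weeks, by -0.59 ± 0.25 and -0.52 ± 0.21 log2 units, and by -0.12 and -0.61 over weeks 12, 15 and 18 on the same slide. All 16 resident macrophage genes, a list that holds Mrc1, Cd163 and Lyve1 themselves, had lower means, with a median of -0.47. An unadjusted p under 0.05 was found for 8 of them, Mrc1 and Cd163 included. The sum of the 16 was lower in 6 of 6 weeks. Lower means were also found in 8 of 10 general macrophage, 10 of 10 early response, 8 of 8 fibroblast, 7 of 7 dendritic cell, 6 of 6 blood endothelial and 9 of 10 adipocyte genes, with medians from -0.64 to -0.33, while 6 of 6 epithelial genes were higher. Of these, the sums of general macrophage, fibroblast and dendritic cell genes were lower in 3 of 6 weeks each, and the sum of blood endothelial genes in 1, by -3.89. Their part in the Mrc1 and Cd163 differences was not tested. Il4ra was 0.46 ± 0.30 log2 units higher, and 0.17 without week 3. In limma, 0 of the 9 genes passed, as did 0% of 29200 probes, with 3 of the 9 genes and 1517 of all probes at an unadjusted p under 0.05. The lowest adjusted p of the 9 genes was 0.910. Over the 9 genes the median difference from HFC was -0.30 with 5 µg over 6 weeks. It was -0.54 with 20 µg and -0.96 with 75 µg, each over 5 weeks. The value of -0.30 is that of Retnla, whose probe was saturated on some of these arrays, so it is not exact. In the same order, the medians were 0.01, 0.08 and -0.01 over all probes and -0.33, -0.56 and -0.78 over the 10 general macrophage genes. Differences between the doses were not tested.

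**Figure D2:**
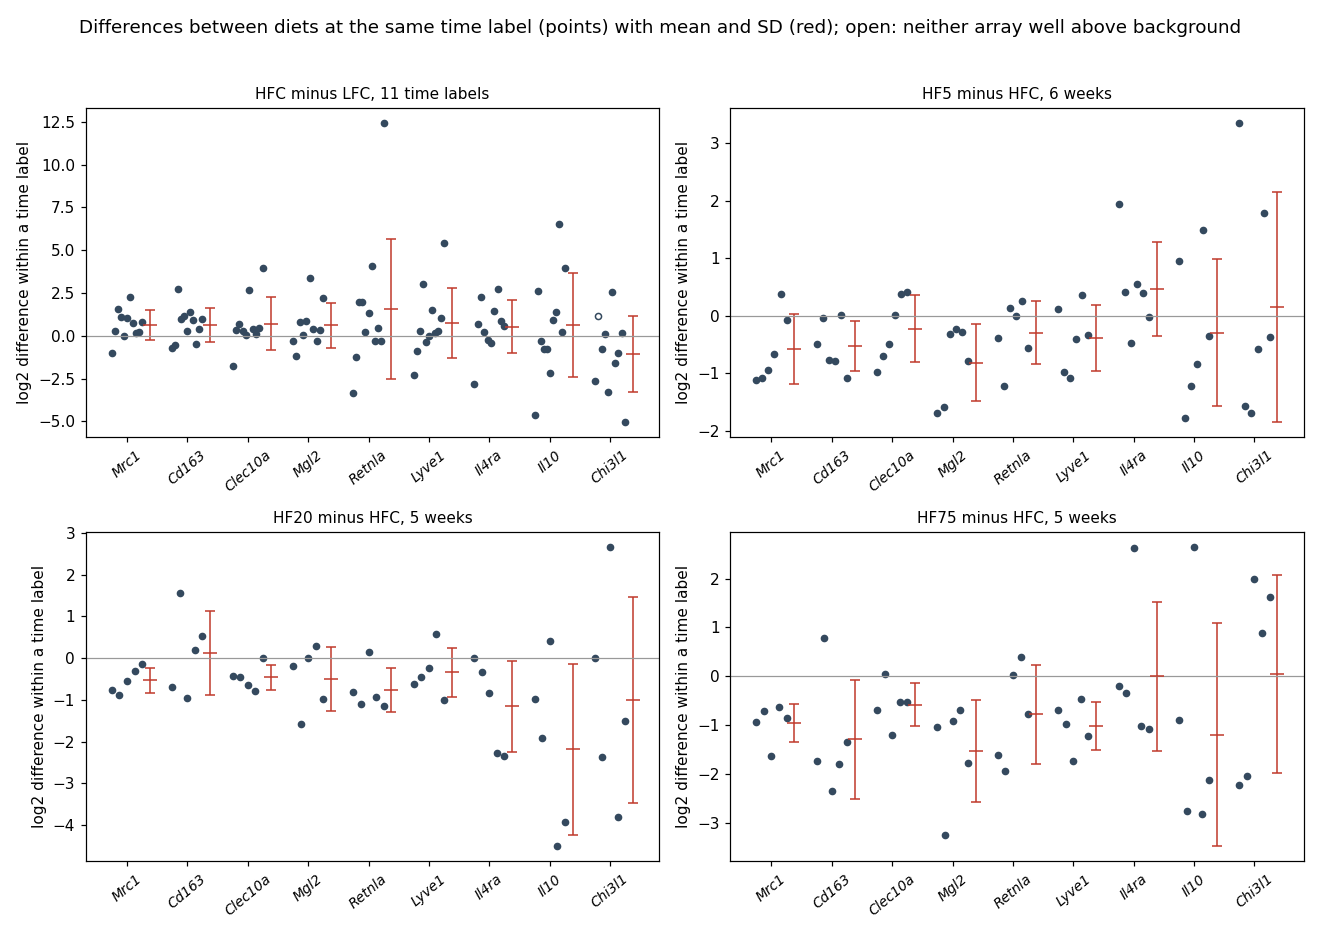
Log2 difference between diets at the same time label (vertical axis) for each of the 9 genes (horizontal axis), with 1 point per time label in time order and the mean and SD in red, for HFC minus LFC and for each Kal-1 dose minus HFC. Open points mark pairs in which neither array was well above background. All 5 points of Mrc1, Mgl2 and Lyve1 lie below 0 in HF75 minus HFC, as do all 6 of Mgl2 in HF5 minus HFC, and the highest point of Retnla in HFC minus LFC, at week 18, is 12.42 and a lower bound, since the LFC level was raised to the lowest of its array.

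With time on the diets, Mrc1 and Cd163 were higher at weeks 3 to 18 than at days 1 to 14 and week 0. Over the 12 later LFC and HFC arrays Mrc1 had a mean of 1.38 ± 0.88 (SD), and over the 10 earlier ones 0.49 ± 0.94. The difference was 0.89 ± 0.38 (SE) log2 units, or 1.85-fold, and 10 of the 12 later arrays lay above the median of the earlier ones. Cd163 had means of 1.40 ± 0.90 and 0.53 ± 1.07 (SD), a difference of 0.87 ± 0.41. Mgl2 was 0.72 ± 0.45 higher, and 0.30 without day 1, and Lyve1 -0.15 ± 0.61 lower. Markers of other cells differed as well. Of 10 adipocyte genes 9 were lower in the later weeks, 5 of them at an unadjusted p under 0.05, with a median difference of -1.99, and their sum, led by Fabp4, had a median of 7.37 on the later arrays and 7.92 on the earlier ones. All 6 blood endothelial genes were lower, with a median of -1.41, as were 7 of 7 T cell, 5 of 5 B cell, 5 of 5 erythroid and 5 of 5 skeletal muscle genes. Of 10 general macrophage genes 8 were higher, with a median of 0.32, and their sum, led by Lyz2, had a median of 6.68 on the later arrays and 5.51 on the earlier ones. Their part in the Mrc1 and Cd163 differences was not tested.

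In limma, 0 of the 9 genes passed against 0.0033% of 30259 probes, which is 1 probe, annotated with Igh and named after its values were seen, and 2 of the 9 genes and 1257 of all probes had an unadjusted p under 0.05. The adjusted p of Mrc1 and of Cd163 was 1.00. Without the 2 LFC arrays that stand apart, 10 probes or 0.0338% passed, and 0 of the 9 genes, with Mrc1 0.91, Cd163 0.76 and Mgl2 0.77 log2 units higher and Lyve1 -0.40 lower. The count of 1 became 0 without any 1 of weeks 6, 9, 15 and 18 or days 6, 10 and 14, and 0 without the LFC array of week 18, which was left out after its levels were seen. It was 2 without week 12 and 4 without week 3. With the scan date as a random block, also added after the data were seen, the differences were 0.92 for Mrc1 and 0.91 for Cd163. Animal age, time on the diet and most scan dates cannot be told apart.

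At week 9 the arrays of LFC, HFC, HF5 and HF20 carry the letters WS in their titles, which the labels do not explain. On these 4 arrays Il10 read -6.99, -5.60, -6.83 and -5.20, and in LFC and HF5 it was not well above background. The 19 arrays of the same diets at the other weeks from 3 to 18 had a mean of -2.39 ± 2.07 (SD). The fitted difference of -3.70 ± 0.95 (SE) log2 units is not exact, since levels not well above background stand on both sides, LFC of weeks 3 and 12 being among the 19. The HFC and HF20 levels, which were well above background, lay below that mean.

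Il4ra read -0.20, 1.23, 0.76 and 0.38 on the WS arrays, against a mean of 2.48 ± 1.16 (SD) on the other 19. It was -1.89 ± 0.51 (SE) log2 units lower, or 3.72-fold, and 2 of the 4 lay below the lowest of the 19. The fitted Chi3l1 difference, -2.41 ± 1.13, is not exact, since its HF5 level and those of LFC at week 3 and HF20 at week 12 were not well above background. It was -1.44 without the HF5 array and -3.73 without the HF20 array. Mrc1, Cd163, Mgl2 and Clec10a lay above the median of the other arrays on 4 of 4 WS arrays. Their fitted mean differences, with diet as a covariate, ran from 0.52 to 0.81 log2 units. The HF75 array of week 9, whose title lacks the letters, read -2.96 for Il10 and 3.85 for Il4ra.

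In limma, 0 of the 9 genes passed, as did 0% of 30510 probes, with 3 of the 9 genes and 5306 of all probes at an unadjusted p under 0.05. The adjusted p was 0.126 for Il10 and for Il4ra. Without the 2 LFC arrays that stand apart, 10 of 30668 probes or 0.0326% passed, and 0 of the 9 genes, with Il10 -3.51, again not exact, and Il4ra -1.81 log2 units lower. Week 9, the letters WS and the scan date shared by these 4 arrays cannot be told apart in LFC, HFC, HF5 and HF20. With the scan date as a random block, added after the data were seen, Il10 was -3.71 and Il4ra -1.96 log2 units lower, and neither passed.

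The early response genes differed on the WS arrays too. All 10 were lower on the WS arrays, each at an unadjusted p under 0.05, with a median difference of -2.89, and the probe of Junb was the brightest of theirs. Their summed level was 3.91 in LFC, 7.11 in HFC, 5.01 in HF5 and 4.33 in HF20 at week 9, against 8.33 in HF75. Of 10 adipocyte genes 9 were higher on the WS arrays, with sums from 8.16 to 8.53. All 8 neutrophil genes, with sums from 0.07 to 2.07, and all 6 epithelial genes were lower. So were 7 of 8 inflammatory macrophage genes, with a median difference of -3.40 and 5 at an unadjusted p under 0.05. On the HF75 array of week 9 the adipocyte sum was 8.49, within the range of the WS arrays, and the neutrophil sum 5.57. None of these list genes passed the threshold on the WS arrays, and their part in the Il10 and Il4ra levels was not tested.

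Over the 36 arrays the widest gap of the summed early response level lay between 5.25 and 6.32. The 7 arrays below it were LFC, HF5 and HF20 of week 9, HFC of day 1, LFC of day 6 and week 12, and HF20 of week 12. On these 7, Il10 was well above background on 2, HF20 of weeks 9 and 12, at -5.20 and -5.29. The rest of the 7 lay at -5.15 or lower and are given no order. On the other 29 Il10 lay between -5.64 and -0.10 with a median of -2.01 and was well above background on all, so that the ranges overlapped. Parting the arrays there was added after the levels were seen, and is a description. Il4ra had medians of 0.40 and 2.29 and its ranges overlapped too. Mrc1, with medians of 1.42 and 1.00, and Cd163, with 1.64 and 1.05, lay the other way. Over the 36 arrays Il10 had a correlation of 0.91 (Spearman's rho 0.84) with the summed inflammatory macrophage genes, such as Tnf, Il1b and Ptgs2. Its correlation with the summed early response level was lower, 0.84 (rho 0.65) over the 36 arrays and 0.67 (rho 0.36) within the 29. The latter rested on the 3 arrays next above the gap, HF20 of week 15, LFC of week 18 and HFC of week 9, with sums from 6.32 to 7.11 and Il10 from -5.64 to -5.56. Within the other 26 arrays it was 0.05 (rho 0.11). On these 26, Il10 was -3.84 or higher, so leaving out the 3 arrays selected on Il10 as well. The low value was in part set by that choice and decides nothing.

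**Figure D3:**
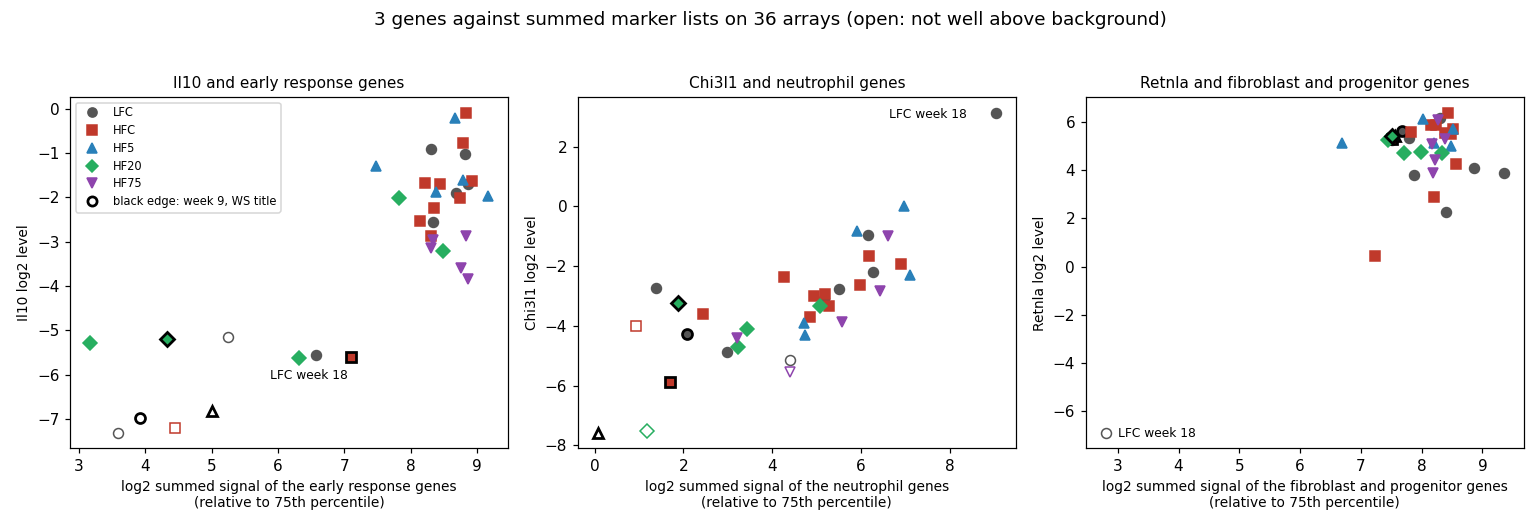
Log2 level of Il10, Chi3l1 and Retnla (vertical axes, relative to the array's 75th percentile) against the log2 summed signal of early response, neutrophil, and fibroblast and progenitor genes (horizontal axes), 1 point per array on 36 arrays, coloured by diet. Open points are not well above background and black edges mark the week 9 arrays with WS titles. Il10 lies lower where the early response sum is low, Chi3l1 runs with the neutrophil sum, and Retnla is apart from the rest in LFC at week 18.

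Across arrays several of the 9 genes varied together. These correlations are descriptions over 34 to 36 arrays that share diets, time points and the mix of cells. The receptors Mrc1, Cd163, Clec10a and Mgl2 were correlated with each other, from 0.66 (Spearman's rho 0.64) for Mrc1 with Cd163 to 0.75 (rho 0.65) for Mgl2 with Clec10a. Retnla was correlated with Clec10a at 0.84 (rho 0.69) and with Mrc1 at 0.52 (rho 0.67). Without the LFC array of week 18 these became 0.81 and 0.70. The correlation of Retnla with Lyve1, 0.79 (rho 0.28), rested on that array and was 0.32 without it.

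Il10 and Il4ra had a correlation of 0.72 (rho 0.61) over 35 arrays and of 0.42 (rho 0.34) over the 28 of them above the widest early response gap, and of 0.13 (rho 0.14) over 25 without the 3 arrays next above it. These 3 held the lowest Il10 levels above the gap, so the last value was in part set by leaving them out. Chi3l1 was correlated with the summed neutrophil genes at 0.78 (rho 0.78), and at 0.74 without the LFC array of week 18. Retnla was correlated with the summed fibroblast and progenitor genes at 0.76, but rho was 0.10 and the value without that array was 0.05. With the summed resident macrophage genes its correlation was 0.73 (rho 0.48), and 0.45 without that array.

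The genes most like each member were sought among 28302 probes measured above background on 50% or more of the 36 arrays. Of the 3 closest to Mrc1, those named are Tmeff2 (0.83) and the chemokine Pf4 (0.83). Mgl2 ran with the lectin Cd209d (0.86), the chemokine Ccl24 (0.80) and Pcolce2 (0.79). Clec10a ran with Dse (0.86), Cd209d (0.85) and 1110067I12Rik (0.85). The closest to Cd163 were the coagulation factor F13a1 (0.69), Ugt1a6b (0.68) and Clec10a itself (0.68). Cd209d thus stood in the lists of both lectins.

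Il10 was closest to Tnf, the inflammatory cytokine (0.94), Ifnb1, an interferon (0.94), and the interferon-induced Oasl1 (0.94). Within the 29 arrays above the widest early response gap these were 0.87, 0.89 and 0.93, and without the 3 next above it 0.82, 0.71 and 0.86. Il4ra was closest to Gm11821 (0.90), the NF-kappaB subunit gene Nfkb2 (0.90) and Ugcg (0.90), with 0.82, 0.81 and 0.85 within the 28 of those arrays on which it was measured and 0.77, 0.74 and 0.81 without the 3. Chi3l1 was closest to Mmp8, the neutrophil collagenase (0.90), the formyl peptide receptor Fpr2 (0.88) and Stfa2l1 (0.85).

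Retnla was closest to the matrix and adhesion genes Efemp1 (0.91), Itga11 (0.90) and Fndc1 (0.90), and without the LFC array of week 18 these were 0.67, 0.68 and 0.62. Lyve1 had a correlation of 0.90 with its own probe listed as Xlkd1. Of other genes it was closest to Lrrc17 (0.89) and the fibrillin gene Fbn1 (0.89), and without that array these were 0.66 and 0.70.

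The genes of the pathways were counted from fixed lists, and none passed the threshold in any of the 7 comparisons. Il4ra and Il10 are themselves in the lists of IL-4 and IL-13 signalling and of IL-10 signalling. Of the IL-4 and IL-13 signalling genes, which include Stat6, Irf4, Klf4 and Pparg, 17 were on the array and the probe of Klf4 was the brightest. Of those tested, 11 of 16 were higher in HFC than in LFC, and 5 of 17 were higher than HFC in HF5, 3 of 16 in HF20 and 4 of 16 in HF75. On the WS arrays 13 of 16 were lower, with a median of -0.79 beside -0.09 over all probes. Further genes of alternative activation, such as Chi3l3, Ccl24 and Tgm2, were higher in HFC than in LFC in 8 of 15 cases, and lower than HFC in 9 of 15 in HF5, 13 of 15 in HF20 and 10 of 16 in HF75. Their summed level differed from HFC by 0.14 ± 0.61 (SD) in HF5, 0.0054 ± 0.54 in HF20 and -0.24 ± 0.83 in HF75. It was higher than in HFC in 4 of 6, 4 of 5 and 2 of 5 weeks.

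Of 9 IL-10 signalling genes, led by Socs3, 7 were higher in HFC than in LFC. Against HFC, 5 of 9 were lower in HF5, 9 of 9 in HF20 and 6 of 9 in HF75, with medians of -0.08, -0.71 and -0.15. Their summed level differed from HFC by 0.18 ± 0.45 (SD) in HF5, where it was higher in 4 of 6 weeks, by -1.05 ± 1.11 in HF20 and by 0.30 ± 0.64 in HF75, where it was higher in 2 of 5 weeks. Inflammatory macrophage genes, such as Tnf, Il1b and Ptgs2, were higher in HFC than in LFC in 8 of 9 cases, and lower than HFC in 7 of 9 in HF5, 9 of 9 in HF20 and 6 of 9 in HF75.

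Among the other cell type lists in HF75 minus HFC, dendritic cell genes were lower in 4 of 7 cases, mast cell genes in 5 of 5, lymphatic endothelial genes, a list that holds Lyve1, in 4 of 5, blood endothelial genes in 4 of 6, fibroblast genes in 6 of 8 and erythroid genes in 4 of 4. Eosinophil genes were lower in 3 of 4 and T cell genes in 4 of 7. Neutrophil genes were higher in 6 of 8, epithelial genes in 6 of 6, B cell genes in 5 of 5, skeletal muscle genes in 5 of 5, adipocyte genes in 5 of 10 and early response genes in 6 of 10. In limma, 5 of 8 fibroblast, 3 of 5 lymphatic endothelial, 2 of 5 mast cell and 3 of 6 epithelial genes had an unadjusted p under 0.05. The medians of these lists were -0.53, -0.99, -1.27 and 1.54. Their part in the Mrc1, Mgl2 and Lyve1 differences was not tested. The summed adipocyte level was higher in HF75 in 5 of 5 weeks, by 0.66 ± 0.40 (SD) log2 units.

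STAT6 carries the IL-4 signal to DNA, and the Retnla promoter is a textbook target of STAT6 and C/EBP proteins. RefSeq promoter windows (GRCm38.p6, 300 bases around the gene start) were at hand for 6 of the 9 genes: Retnla, Mgl2, Mrc1, Cd163, Il4ra and Chi3l1. The STAT-type motif, TTC and GAA with any 4 bases between them, searched on both strands, was found in 1 of these 6, Retnla, and in 6.95% of all 32851 windows. The C/EBP-type motif TTGCNNAA was also found in Retnla alone of the 6, and in 10.8% of all windows, and both motifs together in 0.840%. They do not overlap in Retnla and lie a single base apart, with their first bases at -145 and -134 from the gene start. The window is shown because it alone of the 6 holds both motifs, in capitals. It lies at chr16:48842359-48842658 on the plus strand.
Retnla: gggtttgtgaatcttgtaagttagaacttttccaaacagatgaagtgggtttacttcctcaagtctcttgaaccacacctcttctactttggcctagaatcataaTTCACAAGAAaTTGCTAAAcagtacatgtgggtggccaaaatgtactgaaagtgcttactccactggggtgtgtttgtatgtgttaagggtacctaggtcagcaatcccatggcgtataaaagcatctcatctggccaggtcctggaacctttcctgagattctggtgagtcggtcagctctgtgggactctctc
A match to these letters is a description of the window and no measurement of binding, and no match in the other 5 windows says only that the letters are not there.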

How the data were processed

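The authors deposited 1 scanner file per array, made with Agilent Feature Extraction (9.1 per the processing notes, 10.5.1.1 per the file headers). Its processed signal is an intensity that per the file headers was background subtracted and detrended within the array, not normalized between arrays. The mean signal and local background median are deposited as intensity too. The deposited fold change table holds the authors' log2 fold changes against LFC of the same time point. Only its gene symbols were used. The 2 arrays of week 18 with conflicting labels were left out.

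Spots marked as outliers were dropped, duplicate spots averaged, log2 intensities shifted by the array's 75th percentile, and a probe was taken as well above background where 50% or more of its spots were. Other values under the lowest such level of the array were raised to it. Probes that were so on 50% or more of the arrays on 1 of the sides were fitted with limma 3.58.1 (lmFit, eBayes) in R 4.3.3, with Benjamini-Hochberg adjustment over all probes tested and a threshold of 0.05. Diets were compared with the time label as a block, periods and WS arrays with diet as a covariate. Levels, correlations and sign-flip permutation tests used Python 3.11.15, NumPy 2.4.6, pandas 2.3.3 and SciPy 1.17.1. The fit was tested on simulated data.

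A gene with several probes was read from the one with the highest mean level. Named by rule were the members, the 3 genes most correlated with each, the gene of a list with the brightest probe, and list genes past the threshold. Other list genes are named as examples of a list's content. No result is given for 1 of the 10 members and for 1 of the genes most like Mrc1. The members and lists were chosen with earlier results of these data known. The alternatives were normexp on the mean signal and local background with an offset of 50, quantile normalization, no floor, no filter, a further 2-fold threshold, the mean over all probes of a gene, and leaving out each time label or the arrays that stand apart. Others were no block on time, 1 model of 38 arrays, pairs on the same slide or scan date, the sign-flip test, and, chosen after seeing the data, scan date as a random block, leaving out the LFC array of week 18, mean levels without the LFC array of week 3, the sign-flip test without the 2 LFC arrays that stand apart, and parting the arrays at the widest gap of the summed early response genes.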

Additional observations from a re-analysis of the deposited data

Results flagged for a closer look

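Il10 in HF5 read -6.83 at week 9, not well above background, and from -1.98 to -0.22 at the other 5 weeks, so this array lay far from the others of its diet. Such gaps were looked for in 27 sets of arrays, of 1 gene in 1 diet each, and found in 1, and chance gives about 1 in 20. The array is 1 of the 4 of week 9 with WS in the title, and its cause was not tested.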

How the results depend on the processing

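The differences of the 9 genes in the 7 comparisons, 63 in all, were recomputed under alternatives, which gave 997 values. None passed the threshold in any of them except Il10 (2.57) in the change of the diet difference with time under normexp, with an adjusted p of 0.0478 and up to 0.999 under its other alternatives, where 5049 probes passed in place of 0. The lowest adjusted p over the alternatives was 0.720 for HFC against LFC, 0.268 for HF5, 0.134 for HF20, 0.0534 for HF75, 0.375 for the later weeks and 0.0648 for the WS arrays. The exact sign-flip permutation test, not corrected, gave p under 0.05 for Mrc1 in HFC against LFC and for Mgl2 in HF5 alone, and p = 0.121 for Mrc1 without the 2 LFC arrays that stand apart, a test added after seeing the data. Normexp shifted the median over all probes to -0.30 in HF5, -0.40 in HF20, -0.24 in HF75, -0.22 in the later weeks, -0.22 on the WS arrays and 0.74 in the diet difference, and quantile normalization to 0.18 in HFC against LFC, 0.12 on the WS arrays and 0.01 in the diet difference. Mean signal over background ran from 1.53 to 55.4 between arrays, which limits what dim probes show.

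The 295 probes of HF75 became 153 with no filter, and 0 with no replicate block, in 1 model of 38 arrays and in pairs of the same scan date, and leaving out 1 week gave from 0 to 200. The 1 probe of the later weeks became 0 with normexp, quantile normalization, no filter, scan date as a random block and without the LFC array of week 18, the last 2 chosen after seeing the data. It became 10 without the 2 LFC arrays that stand apart, and from 0 to 4 without 1 time label. On the WS arrays 24 probes passed with quantile normalization and 10 without those 2 arrays.

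Direction changed in 25 alternatives and in 26 that left out 1 time label or array, none past the threshold and none larger than 1.27, and the cause was not tested. In HFC against LFC, pairs on the same slide gave -0.28 for Lyve1. In HF5, normexp gave -0.45 for Chi3l1. The model of 38 arrays gave 0.39 for Retnla, 0.0533 for Clec10a, 0.29 for Il10 and -0.0136 for Chi3l1. Pairs on the same slide gave 0.27 for Clec10a and 0.10 for Il10, and Chi3l1 was -0.0704 with quantile normalization and -0.0304 with no floor. In HF75, normexp gave 0.0622 for Il4ra and -0.39 for Chi3l1, the model of 38 arrays 0.13 for Il4ra, and quantile normalization -0.0364 for Chi3l1. In the later weeks, Il4ra was -0.0369 without the 2 LFC arrays. Il10 was 0.75 with quantile normalization, 0.19 without the LFC array of week 18 and 0.0589 with the random block. Lyve1 was 0.0846 with normexp, 0.33 with quantile normalization and 0.32 without the LFC array of week 18, and Chi3l1 -0.0297 with normexp and -0.19 without that array. In the diet difference, pairs of the same scan date gave -0.24 for Il4ra, and normexp 1.27 for Chi3l1.

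Leaving out 1 label or array at a time changed direction for 13 differences. Il10 ran from -0.65 to 0.0043 in HF5 and from -0.54 to 0.64 in the later weeks. Chi3l1 ran from -0.49 to 0.52 in HF5, from -0.44 to 0.61 in HF75 and from -0.34 to 0.78 in the later weeks. Cd163 ran from -0.23 to 0.40 in HF20 and from -0.50 to 0.37 in the diet difference, and Il4ra from -0.66 to 0.26 in HF75, from -0.10 to 0.61 in the later weeks and from -0.24 to 1.45 in the diet difference. Lyve1 ran from -0.40 to 0.37 in the later weeks and from -0.056 to 0.72 on the WS arrays, and Retnla from -0.0381 to 1.37 in the later weeks.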

Other observations

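The labels of 2 arrays of week 18 conflict, so neither was put in a diet. On the first, 21710 spots were marked as outliers, Il10 and Chi3l1 had no kept spot, and Mrc1 read -1.82, Mgl2 -2.04 and Cd163 -2.03, below the lowest LFC and HFC levels. On the second, Mrc1 read 1.24, Mgl2 0.76, Clec10a 4.27, Cd163 1.76, Retnla 3.82 and Il10 -2.54, within the range of the LFC and HFC arrays.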
